A study of Mus musculus with 24 samples.

Results

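The transcripts described here encode 10 heat shock proteins and their regulator, chosen by name from the 27179 genes of the count tables: Hspa1a, Hspa1b, Hspa8, Hsph1, Hsp90aa1, Hsp90ab1, Dnajb1, Hspd1, Hspe1 and Hsf1. All 10 were found in both tables. The set was selected on a measured value, the fall of Hspa1b in naive B cells of the double-deficient genotype. Values of the 10 genes in that contrast are therefore given as a description with no test, and the same holds for Hspa1a and Hspa1b in every comparison that uses the naive control or naive double-deficient libraries.

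Heat shock proteins are chaperones that hold or refold other proteins. HSP70 proteins (Hspa1a, Hspa1b and Hspa8) bind unfolded stretches and are driven by J proteins such as Dnajb1 and by the exchange factor Hsph1, HSP90 proteins act on signalling kinases and receptors, and Hspd1 with its lid Hspe1 forms the folding chamber of the mitochondrion. Hspa8 and Hsp90ab1 are made in resting cells, whereas Hspa1a and Hspa1b are the classical stress-inducible genes, switched on within minutes by HSF1 after heat or rough handling of cells. HSF1 binds heat shock elements, inverted repeats of the bases nGAAn.

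Lymph node B cells of C57BL/6 mice aged 6 to 20 weeks were profiled by RNA-seq in 24 libraries, 2 for each of 4 genotypes at 3 stages. Control mice were Cd23T/+, with no floxed allele listed. Conditional loss of PU.1 alone (Spi1fl/fl with Cd23T/+) is called PU.1 cKO. Germline loss of SpiB alone, with Spib-/- on Spi1fl/fl and Cd23+/+, is called SpiB KO. The double-deficient mice (PU.1 SpiB DKO, or DKO) joined Spib-/- to Spi1fl/fl and Cd23T/+. The study describes incomplete loss of the floxed Spi1 exon in naive cells of this genotype, so naive DKO cells do not uniformly lack PU.1. Cd23T is a transgene that expresses Cre from the Cd23 promoter in maturing B cells, so control, PU.1 cKO and DKO cells carry Cre and SpiB KO cells do not. Cells were naive or had been cultured for 48 h with CD40L (50 ng/ml) and IL-4 (10 ng/ml) or with LPS (20 µg/ml) and IL-4, and the replicates are described by the study as biological. The CD40L + IL-4 libraries were deposited in one count table and the naive and LPS + IL-4 libraries in another, so comparisons of CD40L + IL-4 with another stage also run across tables, and the part of that was not tested.

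Library totals ran from 9598674 to 73658850 counts. Levels below are CPM, a gene's count over the library total on the usual scale of that unit, and groups are given as mean ± SD of n = 2 libraries. A gene was called changed at an edgeR quasi-likelihood adjusted p under 0.15 (Benjamini-Hochberg, over all genes tested) and a fold over 1.5, and log2 fold changes carry their SE. With 2 libraries against 2, an exact permutation test cannot go below p = 0.333, so single values rest on the spread estimated across all genes. Spib was at 82.6 ± 1.29 CPM in naive SpiB KO and 104 ± 5.96 in DKO against 1364 ± 36.6 in control. Spi1, whose deleted exon is only part of the counted gene, was at 55.9 ± 3.95 CPM in naive PU.1 cKO but at 111 ± 10.8 in naive DKO, against 159 ± 17.9 in control. After LPS + IL-4 its level in DKO (62.3 ± 4.37) lay within the range of the controls (59.9 and 73.2 CPM), so the gene-level count does not check the deletion there. In the naive libraries B cell markers (8 of 8 detected) summed to 9048 to 11167 CPM, so that the labelled cell type holds.

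Hspa1a and Hspa1b lie side by side on chromosome 17 (GRCm38, chr17:34969359-34972156 and chr17:34956429-34959238) and are close to identical, which limits how far their counts can be separated. Of the 75-base windows along the Hspa1b transcript, 55.8% also occur in Hspa1a, and 52.7% of the Hspa1a windows occur in Hspa1b. Only uniquely mapped reads were counted, so both levels rest on the parts that differ and each can be too low. The 300 bases around the start of both genes (250 before and 50 after, RefSeq, GRCm38.p6) differ at 4 positions: C44T, T47C, T249G and C276T, with the Hspa1a base first and positions counted from 1 at the 5′ end of the window. The 250 bases before the start, chr17:34972157-34972406 and chr17:34959239-34959488 on the minus strand, are shown because both genes were low in naive DKO cells, and capitals mark the 3 differences that fall among them.
Hspa1a: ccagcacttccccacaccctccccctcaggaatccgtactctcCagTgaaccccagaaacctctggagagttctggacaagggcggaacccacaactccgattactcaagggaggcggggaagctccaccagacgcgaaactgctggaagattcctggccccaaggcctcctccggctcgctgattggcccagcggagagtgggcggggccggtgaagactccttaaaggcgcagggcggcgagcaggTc
Hspa1b: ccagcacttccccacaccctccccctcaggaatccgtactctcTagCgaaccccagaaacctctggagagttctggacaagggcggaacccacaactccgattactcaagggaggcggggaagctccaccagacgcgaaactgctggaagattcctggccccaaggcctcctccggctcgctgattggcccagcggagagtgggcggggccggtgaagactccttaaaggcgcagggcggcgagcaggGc

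Neither window holds a heat shock element of 3 units (TTCNNGAA with TTC after a further 2 bases, or GAANNTTC with GAA after a further 2 bases, which covers both strands), which 0.603% of all 32851 promoter windows hold. Both hold the shorter pair of 2 units, GAAGATTC, 104 bases before the start, and 15.1% of all windows hold such a pair (TTCNNGAA or GAANNTTC, which the longer form contains). Among the 6 members with a promoter window, 3 hold the element of 3 units. Hspd1 and Hspe1 are transcribed away from each other on chromosome 1 and share it, and in Hsph1 it lies just after the start. These are matches of letters and not measured binding. The shared region of Hspd1 and Hspe1 (chr1:55087999-55088136, plus strand, the strand of Hspe1) and the Hsph1 element (chr5:149636287-149636308, minus strand) are shown with the element in capitals, since these 3 genes are among the 5 whose DKO effect differed between the cultures below.
Hspe1 and Hspd1: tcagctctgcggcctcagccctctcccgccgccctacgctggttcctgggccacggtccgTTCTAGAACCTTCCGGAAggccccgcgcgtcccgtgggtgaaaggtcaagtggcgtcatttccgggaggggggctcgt
Hsph1: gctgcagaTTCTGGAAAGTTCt
The core of the site bound by PU.1 and SpiB (GAGGAA or TTCCTC) occurs in 28.3% of all windows and, of the 6 members, in those of Dnajb1 alone.

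In naive B cells both DKO libraries of Hspa1b lay lowest, and replicates differed within every genotype. The control libraries held 46.0 and 13.4 CPM (695 and 191 counts) and the DKO libraries 1.80 and 0.455 CPM (29 and 8 counts). Between them lay PU.1 cKO with 2.70 and 14.4 CPM and SpiB KO with 15.2 and 8.74 CPM. The DKO libraries did not overlap with any other naive library, and the lower control library was 7.45-fold above the higher DKO library. The fitted log2 fold change against control was -4.88 ± 0.94, 5th among the falls called in that contrast. Replicates of the same genotype differed by 3.43-fold in control, 5.34-fold in PU.1 cKO, 1.74-fold in SpiB KO and 3.96-fold in DKO. Leaving out 1 of the control or DKO libraries moved the fold change between -6.18 and -3.67.

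Hspa1a had a similar order of libraries. Its levels were 13.6 and 2.74 CPM for control and 0.311 and 0 for DKO (5 and 0 counts), with PU.1 cKO at 0.377 and 4.22 CPM and SpiB KO at 3.48 and 2.36. With 1 DKO library at 0, its fitted fold change is set in part by the prior count. The first control library was the highest of the 8 and the first PU.1 cKO library the lowest outside DKO for both genes, and their within-stage deviations correlated at Pearson r = 0.996 over the 8 naive libraries. Both values come from the same libraries. Summed, they came to 59.6 and 16.2 CPM for control, 2.11 and 0.455 for DKO, 3.08 and 18.7 for PU.1 cKO libraries and 18.7 and 11.1 for SpiB KO, which leaves the separation of DKO from the other genotypes as it was.

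**Figure D1:**
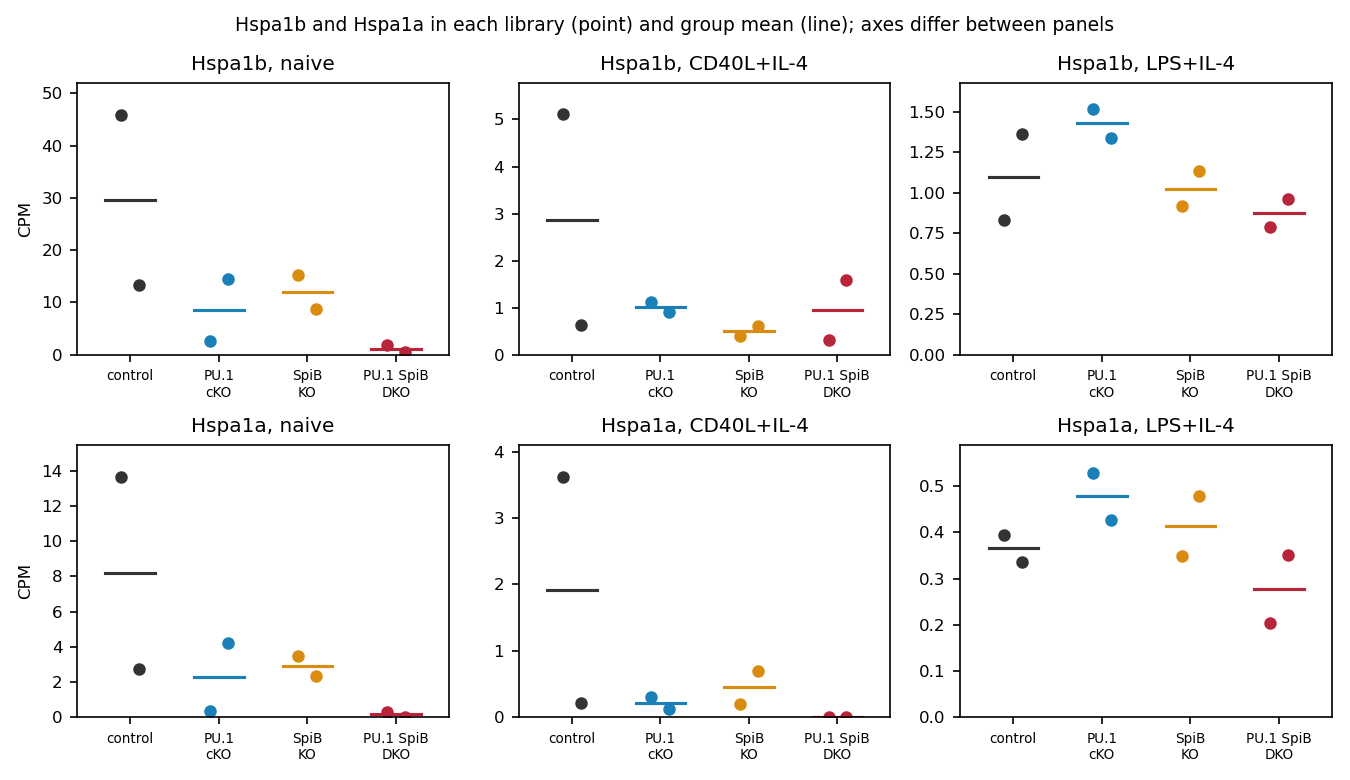
Hspa1b (top) and Hspa1a (bottom) in each library. Points are CPM of single libraries, replicate 1 to the left, lines are means of 2 libraries, and the y axis starts at 0 and differs between panels. In naive cells the DKO libraries lie lowest, and the control libraries of Hspa1b lie 3.43-fold apart (46.0 and 13.4 CPM).

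Of the 10 genes, 6 met the thresholds as falls in naive DKO cells against control. Over all 12500 genes tested, 21.6% were called in either direction and 9.34% were called lower. The count of 6 used the contrast that chose the set and is a description. Besides the Hspa1 pair they were Hspa8, at 325 and 351 CPM in control and 187 and 182 in DKO, Hsph1, at 77.6 and 92.0 against 41.8 and 57.7, Dnajb1, at 138 and 205 against 112 and 98.7, and Hsf1, at 38.6 and 43.8 against 26.0 and 30.1 CPM. In each of these the DKO and control libraries did not overlap, in the same contrast that chose the set. The share of all genes without such overlap was not counted. The HSP90 genes overlapped between the genotypes (Hsp90aa1 43.5 and 50.3 against 30.4 and 44.4 CPM, Hsp90ab1 925 and 1231 against 875 and 1198). The mitochondrial pair was slightly higher in DKO, Hspd1 at 110 and 120 CPM against 94.8 and 93.0 and Hspe1 at 133 and 106 against 103 and 102. Among these 10 genes, the Hspa1 pair, Hspa8, Hsph1, Dnajb1 and Hsf1 thus stood lower and the mitochondrial pair did not. That describes the listed genes only. Other chaperone genes, given below, were called in both directions in this contrast.

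The other naive comparisons share these libraries, and in them the 8 members other than the Hspa1 pair were tested. Loss of PU.1 alone gave 0 calls among the 8 (10.9% of all genes; 2 of the 8 had an unadjusted p under 0.05, and DESeq2 called 0). Hspd1 was 1.38-fold above control in PU.1 cKO (adjusted p = 0.0490) and Hsf1 was 1.44-fold below it (adjusted p = 0.0627), both short of the 1.5-fold threshold. Loss of SpiB alone also gave 0 calls among the 8 (9.76% of all genes, 2 with an unadjusted p under 0.05, 0 by DESeq2). Hsf1, at 30.0 and 27.4 CPM in SpiB KO, was 1.49-fold below control (adjusted p = 0.0521), and Hspa8, at 268 and 241 CPM, was 1.38-fold below it (adjusted p = 0.0623). For Hspa1b the log2 fold change against control was -1.87 ± 0.75 without PU.1 and -1.38 ± 0.73 without SpiB, and in both the libraries overlapped with control.

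Against PU.1 cKO, naive DKO cells had 3 of the 8 lower and 0 higher, where 12.9% of all genes were called and 3.02% were called lower. The naive DKO libraries took part in the choice of the set, so tests that use them are not independent of that choice. Hspa8 fell by 0.91 ± 0.12 on the log2 scale (adjusted p = 0.00114). Dnajb1, the J protein that feeds clients to HSP70, stood at 193 and 233 CPM in PU.1 cKO and fell by 1.09 ± 0.21 (adjusted p = 0.00808). Hsph1, at 64.2 and 96.9 CPM in PU.1 cKO, fell by 0.77 ± 0.27 (adjusted p = 0.109), a call that was lost without the first DKO library (adjusted p = 0.413) or the second PU.1 cKO library (adjusted p = 0.553). Against SpiB KO only Hsph1 of the 8 was called (3.01% of all genes), falling by 1.04 ± 0.27 from 69.5 and 126 CPM (adjusted p = 0.101), and leaving out the second SpiB KO library (adjusted p = 0.529) or either DKO library (adjusted p = 0.451 and 0.225) ended the call. Dnajb1 (-0.68 ± 0.21, adjusted p = 0.176), whose DKO libraries lay below both SpiB KO libraries, was called with the replicate block (adjusted p = 0.0852), DESeq2 (adjusted p = 0.0320), no filter or all 24 libraries. As a description, Hspa1b fell by 3.01 ± 0.96 against PU.1 cKO and by 3.50 ± 0.94 against SpiB KO.

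**Figure D2:**
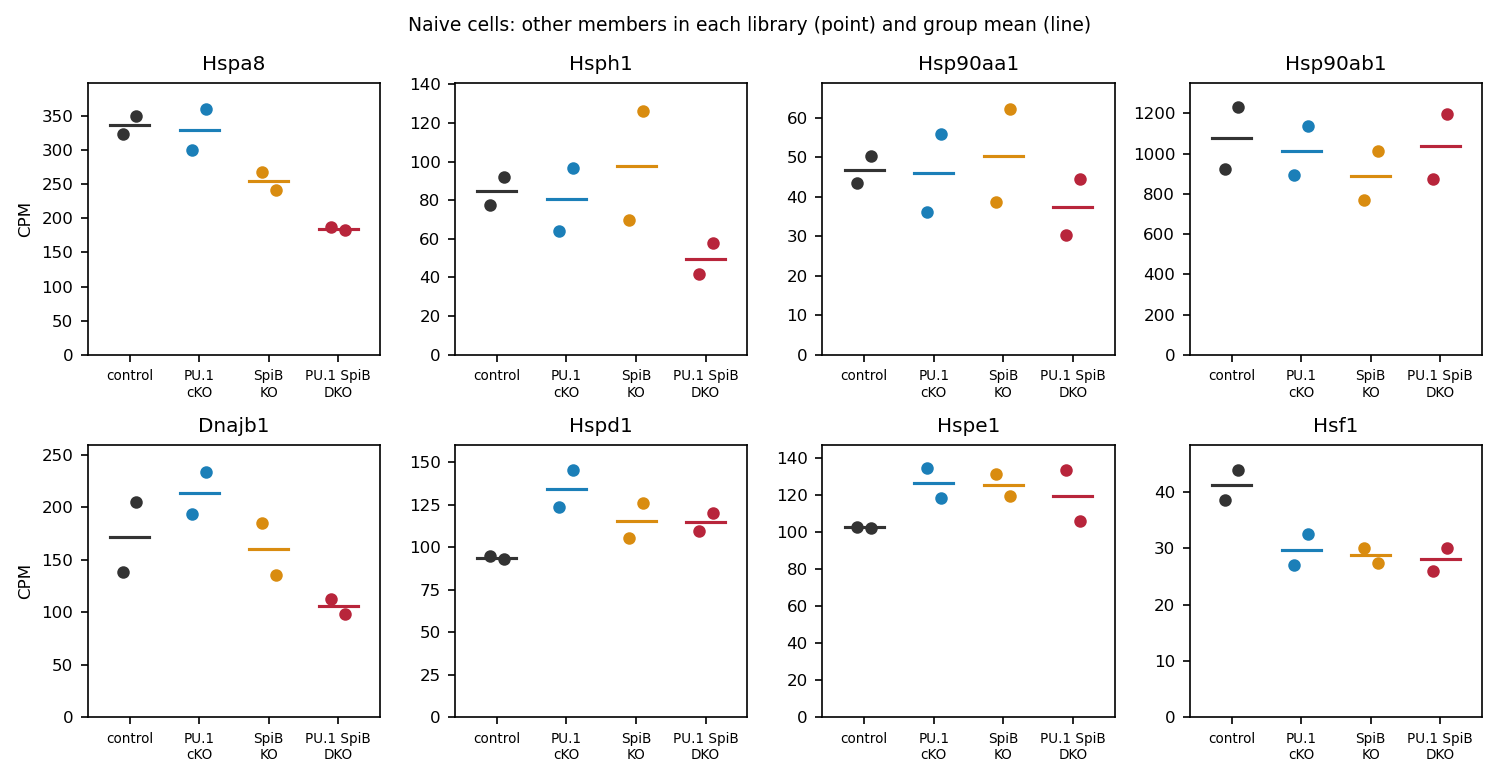
The other 8 members in naive cells. Points are CPM of single libraries, lines are means of 2 libraries, and each y axis starts at 0. Both DKO libraries of Hspa8 (187 and 182 CPM) lie below every other library, whereas Hsp90aa1 and Hsp90ab1 overlap across genotypes.

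Immediate early genes, which respond within minutes to stimulation and to handling of cells, also differed between the naive genotypes. Their sum over 17 genes was 3855 to 4371 CPM for naive control, 2854 to 2991 for DKO, 3134 to 3247 for PU.1 cKO libraries and 3185 to 3508 for SpiB KO. Of the 16 tested, 12 were lower and 0 higher in DKO, 11 lower and 0 higher in PU.1 cKO, and 2 lower and 0 higher in SpiB KO, where 9.34%, 6.94% and 3.84% of all genes were called lower. The medians were log2 fold changes of -0.89, -0.91 and -0.47, against -0.02, -0.03 and -0.0019 over all genes. Fos, an AP-1 subunit, was at 172 and 38.7 CPM in the control libraries and Dusp1, a MAP kinase phosphatase, at 55.8 and 16.2, so that the first control library was high for both, as it was for Hspa1b. In DKO Fos stood at 31.0 and 16.7 CPM and fell by 2.29 ± 0.83 (adjusted p = 0.0812), and Dusp1 fell by 2.52 ± 0.70 (adjusted p = 0.0327). By the sum over the 17 genes and by Hspa1b, the first library was the higher of the pair in control, SpiB KO and DKO. In PU.1 cKO the sum was 3247 and 3134 CPM in the first and second library, whereas Hspa1b was 2.70 and 14.4 CPM. The part of immediate early genes in the Hspa1 values was not tested.

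Markers of other cell types also moved with SpiB loss in naive cells. All 7 plasmacytoid dendritic cell markers were higher in both SpiB KO and DKO, with sums of 180 to 293 CPM for control, 1623 to 1648 for DKO, 232 to 237 for PU.1 cKO libraries and 1145 to 1406 for SpiB KO, none of them at 0 in any library. The 7 T cell markers summed to 20.3 to 55.8 CPM in control, 324.5 to 387 in SpiB KO and 452 to 475 in DKO, while Cd3d, Cd3e and Cd3g did not exceed 1.24 CPM in any naive library. The 9 macrophage markers summed to 11.5 to 21.03 CPM in control and 69.4 to 75.1 in DKO, with up to 3 of the 9 at 0 in a library. In these bulk samples, fewer cells of a type and less RNA per cell cannot be told apart. The part of these cell types in the members' values was not tested.

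The set as a whole took a larger share of counts in culture. The 10 genes took 0.152 to 0.220% of all counts in naive libraries, 0.385 to 0.600% after CD40L + IL-4 and 0.734 to 1.11% after LPS + IL-4. In control cells, 6 of the 8 members outside the Hspa1 pair rose from naive to LPS + IL-4 and 1 fell (63.8% of all 13684 genes were called), and 3 rose and 1 fell from naive to CD40L + IL-4 (48.6% of all genes). The counts of members are to be read against that background. Their median log2 fold changes were 1.86 and 0.40, against 0.03 and 0.02 over all genes.

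Hsp90aa1, Hspd1 and Hsp90ab1 had the largest rises in both cultures. Hsp90aa1, the inducible HSP90, went from 43.5 and 50.3 CPM in naive control to 191 and 120 after CD40L + IL-4 and 542 and 663 after LPS + IL-4, a rise of 3.53 ± 0.30 on the log2 scale for LPS + IL-4 (adjusted p = 4.17e-09). Hspd1 went from 94.8 and 93.0 CPM to 233 and 224 and then 1051 and 1328, a rise of 3.51 ± 0.24 for LPS + IL-4 (adjusted p = 1.57e-10) and of 1.12 ± 0.22 for CD40L + IL-4 (adjusted p = 0.000249). For both genes the stages did not overlap. Hsp90ab1, the constitutive HSP90 and the most abundant of the set, went from 925 and 1231 CPM to 4039 and 3572 and then to 6596 and 6977.

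Hspa8 rose by 1.62 ± 0.22 for LPS + IL-4 (to 1037 and 1268 CPM, adjusted p = 2.37e-06) and Hsph1 by 2.10 ± 0.29 (to 350.5 and 452 CPM, adjusted p = 3.20e-06). After CD40L + IL-4 Hsph1 stood at 93.5 and 79.8 CPM, where the interval of the difference from naive (2 SE on either side) was -0.70 to 0.45. Hspe1, the co-chaperonin, rose by 1.17 ± 0.18 for LPS + IL-4 (to 242 and 271 CPM, adjusted p = 8.67e-06), less than its partner Hspd1. Hspd1 and Hspe1 overlap by 96 bases at their starts, and the counting is not stated to use strand, so reads in that stretch could be counted for either.

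Dnajb1 went the other way, from 138 and 205 CPM in naive control to 98.5 and 105 after CD40L + IL-4 and 77.1 and 88.6 after LPS + IL-4. It fell by 1.19 ± 0.19 for LPS + IL-4 (adjusted p = 1.38e-05) and by 0.90 ± 0.19 for CD40L + IL-4 (adjusted p = 0.000486). Hsf1, the regulator itself, stood at 38.6 and 43.8 CPM in naive control, 33.7 and 31.5 after CD40L + IL-4 and 49.8 and 48.9 after LPS + IL-4, without overlap. Its log2 difference of CD40L + IL-4 from naive was -0.50 ± 0.14 (adjusted p = 0.00477), under the fold threshold. As a description, Hspa1b stood at 5.12 and 0.625 CPM in the CD40L + IL-4 controls and at 0.835 and 1.37 in the LPS + IL-4 controls, below both naive controls. Hspa1a stood at 3.62 and 0.208 CPM in the CD40L + IL-4 controls, overlapping with naive, and at 0.396 and 0.337 in the LPS + IL-4 controls.

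Between the cultures, 8 of the 10 members differed in control cells (41.1% of all genes), 7 higher and 1 lower after LPS + IL-4. The rises ran from 0.60 ± 0.13 for Hsf1 (adjusted p = 0.00119) to 2.39 ± 0.22 for Hspd1 (adjusted p = 1.37e-07). That of Hsf1 was 1.52-fold, just over the threshold, and missed it under 3 other normalizations or tools. The lower gene was Hspa1a (-2.43 ± 1.06, adjusted p = 0.0675), which rested on 41 counts in the first CD40L + IL-4 control library: without that library the difference was 0.78 in the other direction (adjusted p = 0.785).

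**Figure D3:**
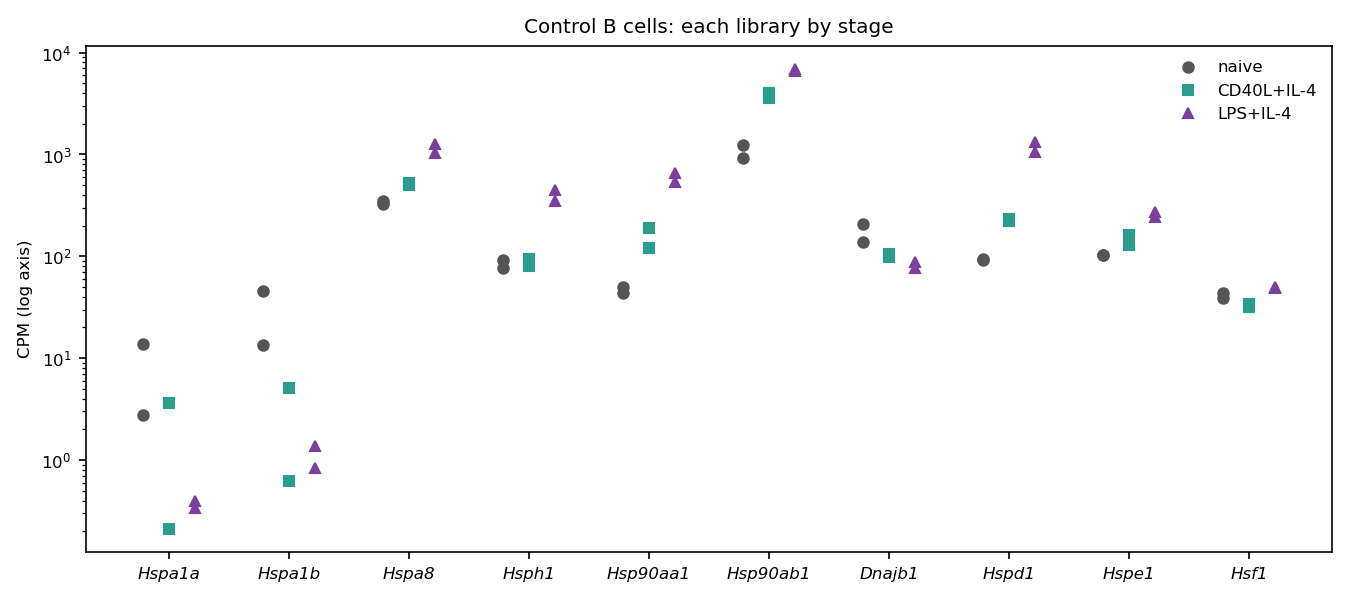
Control libraries at the 3 stages. Each point is the CPM of 1 library on a log axis, with 2 libraries for each gene and stage. Hsp90aa1, Hspd1 and Hsp90ab1 climb from naive through CD40L + IL-4 to LPS + IL-4, Dnajb1 declines, and the CD40L + IL-4 libraries of Hspa1a overlap with the naive ones.

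Levels of different genes can be compared per length in the deposited log2 RPKM values (reads scaled to gene length and library size). In naive control cells the order of the means was Hsp90ab1 (8.73), Hspa8 (7.41), Hspe1 (7.19), Dnajb1 (6.31), Hspd1 (5.46), Hsph1 (4.74), Hsf1 (4.50), Hsp90aa1 (4.19), Hspa1b (3.32) and Hspa1a (1.40), all on the log2 RPKM scale. Hspa1b, at 4.25 and 2.39, overlapped with both of its neighbours in that order, Hsp90aa1 (4.16 and 4.22) and Hspa1a (2.57 and 0.24), and no other neighbours did. After LPS + IL-4 the order on that scale began with Hsp90ab1 (11.8), Hspa8 (9.09), Hspd1 (8.98), Hspe1 (8.35) and Hsp90aa1 (7.69), where the libraries of Hspa8 (8.97 and 9.20) and Hspd1 (8.84 and 9.11) overlapped. Hspd1 had moved up past Hspe1 and Dnajb1, and Hspa1a is not listed there.

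After LPS + IL-4, 5 of the 9 members tested were lower in DKO than in control and 0 were higher, where 20.2% of all 12445 genes were called and 7.13% were called lower. The median log2 fold change of the 9 was -0.67, against -0.02 over all genes. Hspa1a did not pass the filter on low counts in this culture. Hspa8 stood at 1037 and 1268 CPM in control and 653 and 599.9 in DKO, a fall by 0.93 ± 0.11 on the log2 scale (adjusted p = 0.000331). Hspd1 stood at 1051 and 1328 CPM in control and 671 and 748 in DKO and fell by 0.79 ± 0.13 (adjusted p = 0.00195). Its lid Hspe1 went from 242 and 271 CPM to 159 and 175 and fell by 0.67 ± 0.11 (adjusted p = 0.00163). The 2 mitochondrial partners therefore fell together, with no overlap between genotypes.

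Hsp90aa1, at 542 and 663 CPM in control and 384 and 397.5 in DKO, fell by 0.68 ± 0.11 (adjusted p = 0.00186). Hsph1, at 350.5 and 452 CPM in control and 250 and 270.2 in DKO, fell by 0.67 ± 0.13 (adjusted p = 0.00377). Hsp90ab1 (6596 and 6977 CPM against 5098 and 5258) and Hsf1 (49.8 and 48.9 against 39.5 and 36.3) also did not overlap and had adjusted p-values of 0.0217 and 0.00554, but their folds of 1.35 and 1.34 were under the threshold. Dnajb1 stood at 77.1 and 88.6 CPM in control and 81.6 and 87.0 in DKO, with an interval of the log2 difference from -0.25 to 0.20. For Hspa1b (0.835 and 1.37 against 0.790 and 0.960 CPM) the interval was -1.14 to 0.26, wide enough to hold a fold of the size seen for Hspa8.

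The LPS + IL-4 calls of Hsph1, Hsp90aa1, Hspd1 and Hspe1 rested on the second control library, the higher of the pair for all 5 genes. Without it Hspa8 alone was still called (a fall by 0.72), while Hsph1, Hsp90aa1, Hspd1 and Hspe1 had log2 fold changes of -0.42, -0.47, -0.56 and -0.53 with adjusted p-values of 0.0215, 0.00978, 0.00974 and 0.0139, under the fold threshold. Hspe1 was also under it without the first DKO library (-0.58), and Hsph1 and Hsp90aa1 were under it with voom (-0.55 each), which in turn called Hsp90ab1 (-0.64, adjusted p = 0.0343) and Hspa1b (-0.83, adjusted p = 0.135). Markers of plasma cells (6 genes) summed to 672 to 702 CPM in control and 1640 to 1673 in DKO, with at most 1 of the 6 at 0 in a library. Xbp1 (358 to 1092 CPM over all genotypes) and Irf4 (267 to 499 CPM) made up most of these sums, while Sdc1 stood at 5.23 to 8.70 CPM. T cell markers summed to 31.2 to 41.1 CPM in control and 107 to 130.2 in DKO. Nearly all of that sum was Thy1 (30.4 to 130 CPM over all genotypes), while Cd3d, Cd3e and Cd3g did not exceed 0.131 CPM. Macrophage markers summed to 11.05 to 17.9 and 5.89 to 6.81 CPM in control and DKO, and immediate early genes to 1968 to 2094 and 2748 to 3079. The part of these groups of genes in the falls was not tested.

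Single losses had smaller effects in this culture. In PU.1 cKO 0 of the 9 were called (10.5% of all genes, 0 with an unadjusted p under 0.05, 0 by DESeq2), and outside Hspa1b the widest intervals were those of Hspd1 (-0.33 to 0.20) and Hsph1 (-0.36 to 0.16). In SpiB KO Hspa8 was the 1 call (3.25% of all genes), at 740.5 and 674 CPM, a fall by 0.70 ± 0.11 (adjusted p = 0.0149) that dropped under the fold threshold without the second control library (-0.53). DKO was below PU.1 cKO for 3 of the 9 (12.3% of all genes, 3.82% lower): Hspa8 by 0.77 ± 0.11, Hspd1 by 0.73 ± 0.13 and Hspa1b by 0.78 ± 0.34, from 1.52 and 1.34 CPM (adjusted p = 0.131), the last lost on leaving out any 1 of these 4 libraries. Against SpiB KO 0 of the 9 were called (12.7% of all genes, 0 by DESeq2), although 6 of the 9 had an adjusted p under 0.15 with folds below 1.5, all lower in DKO. For Hspa8 the interval of DKO minus SpiB KO was -0.46 to -0.0037.

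After CD40L + IL-4 the members shared no direction. Of the 10, 4 had a DKO effect above 0, and the median log2 fold change was -0.08, against 0.01 over all genes. Hsph1 and Hspd1 were called higher in DKO than in control and Hspa1a lower, where 18.4% of all 12721 genes were called. Hsph1 stood at 93.5 and 79.8 CPM in control and 103 and 182 in DKO, a rise of 0.73 ± 0.29 (adjusted p = 0.125), and Hspd1 at 233 and 224 against 265 and 452, a rise of 0.66 ± 0.26 (adjusted p = 0.124). The DKO libraries lay above both controls, but 1.71-fold apart for Hspd1, and leaving out the second DKO library lowered the differences to 0.35 and 0.31 (adjusted p = 0.600 and 0.609). Without either control library neither was called. Hspa8 (524 and 504 CPM against 327 and 608) and Hsp90aa1 (191 and 120 against 135 and 235) overlapped, as did Hsp90ab1, Dnajb1 and Hspe1. In the same control and DKO libraries, plasma cell markers summed to 1231 to 1412 and 2202 to 2684 CPM, T cell markers to 53.7 to 57.3 and 161 to 199, macrophage markers to 40.6 to 56.05 and 8.53 to 8.80, B cell markers to 5808 to 7285 and 3938 to 4572, and immediate early genes to 2247 to 2451 and 3014 to 3288. Xbp1 (764 to 1863 CPM over all genotypes) and Irf4 (401 to 726 CPM) made up most of the plasma cell sums. Thy1 (49.8 to 197 CPM) made up most of the T cell sums, while Cd3d, Cd3e and Cd3g did not exceed 0.692 CPM. Up to 7 of the 9 macrophage and 4 of the 7 T cell markers were at 0 in a library, and the part of these groups was not tested.

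Hspa1a had 41 and 2 counts in the CD40L + IL-4 controls (3.62 and 0.208 CPM) and 0 counts in both DKO libraries, where a count of 0 allows up to 0.305 and 0.296 CPM (3 counts, counting error only). The second control library is itself under that limit, so no fold is given. The call (adjusted p = 0.0419) rested on the first control library, without which the gene did not pass the filter. In PU.1 cKO (0.305 and 0.130 CPM) Hspa1a was the 1 gene called of 10 (13.5% of all genes, adjusted p = 0.0977). The PU.1 cKO call rested on the same first control library, since the second (0.208 CPM) lay between the PU.1 cKO libraries. It was also lost without the second PU.1 cKO library. Hspa1b was at 5.12 and 0.625 CPM in control and 0.305 and 1.58 in DKO, and was not called.

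In SpiB KO 0 of the 10 members were called after CD40L + IL-4 (0.134% of all genes, 1 with an unadjusted p under 0.05, 0 by DESeq2). DKO and PU.1 cKO also differed in 0 of the 10 (4.21% of all genes, 0 with an unadjusted p under 0.05, 0 by DESeq2). For Hspd1 the interval of DKO minus PU.1 cKO was -0.26 to 0.79. Between DKO and SpiB KO Hspd1 was the 1 call (15.3% of all genes), a difference of 0.66 ± 0.26 with overlapping libraries (169 and 287 CPM in SpiB KO, adjusted p = 0.141). The SpiB KO replicates were up to 1.88-fold apart (Hsph1) and the DKO replicates up to 1.86-fold (Hspa8), leaving aside the Hspa1 pair.

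**Figure D4:**
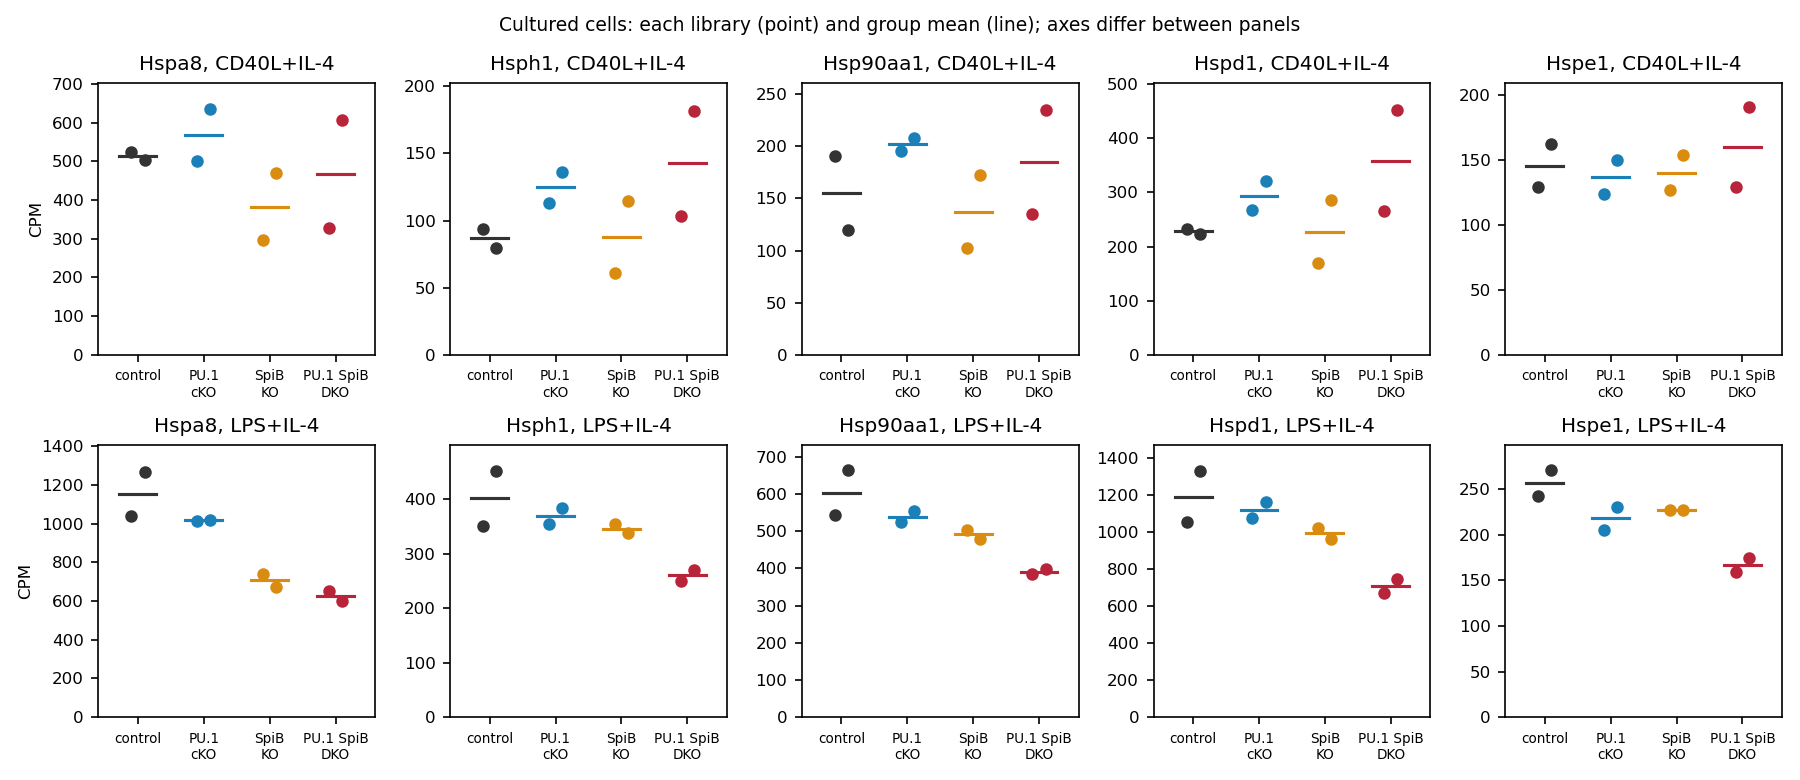
The 5 members called lower in DKO than in control after LPS + IL-4, shown in both cultures. Points are CPM of single libraries, lines are means of 2 libraries, and each y axis starts at 0 and differs between panels. After LPS + IL-4 (bottom) both DKO libraries lie below both controls for every gene, and after CD40L + IL-4 (top) the DKO libraries of Hsph1 and Hspd1 lie above them.

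The difference between the 2 cultures was tested directly, as the DKO effect after LPS + IL-4 minus that after CD40L + IL-4 in a fit of all 24 libraries. It was negative and passed an adjusted p under 0.15 for 5 members, where 28.7% of all 13684 genes passed in either direction and 14.7% were negative. Hspd1 differed by -1.49 ± 0.30 (adjusted p = 0.00399), Hsph1 by -1.44 ± 0.40 (adjusted p = 0.0219), Hsp90aa1 by -0.97 ± 0.39 (adjusted p = 0.0947), Hspe1 by -0.85 ± 0.25 (adjusted p = 0.0261) and Hspa8 by -0.84 ± 0.31 (adjusted p = 0.0713), all on the log2 scale. Hspd1 and Hsph1 kept their calls on leaving out each control or DKO library of the cultures in turn. Hspa8, Hsp90aa1 and Hspe1 lost theirs without the second CD40L + IL-4 DKO library (adjusted p = 0.433, 0.409 and 0.167), and Hspa8 and Hsp90aa1 also lost theirs without the second LPS + IL-4 control library (adjusted p = 0.296 and 0.322) or the second LPS + IL-4 DKO library (adjusted p = 0.157 and 0.1504). Hsp90aa1 further lost it without the second CD40L + IL-4 control (adjusted p = 0.290) or the first LPS + IL-4 DKO library (adjusted p = 0.219). Hspa1a also passed in the positive direction (adjusted p = 0.141), with CD40L + IL-4 DKO counts of 0, a call lost under 10 alternatives, among them the replicate block (adjusted p = 0.160). For Dnajb1 the interval was -0.50 to 0.56. The same difference passed for 0 of the 10 members with the PU.1 cKO effect (2.98% of all genes, 1 with an unadjusted p under 0.05, 0 by DESeq2). With the SpiB KO effect it passed for 0 of the 10 (0 with an unadjusted p under 0.05, 0 by DESeq2) and for 0% of all genes (421 genes with an unadjusted p under 0.05, 3 genes by DESeq2).

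**Figure D5:**
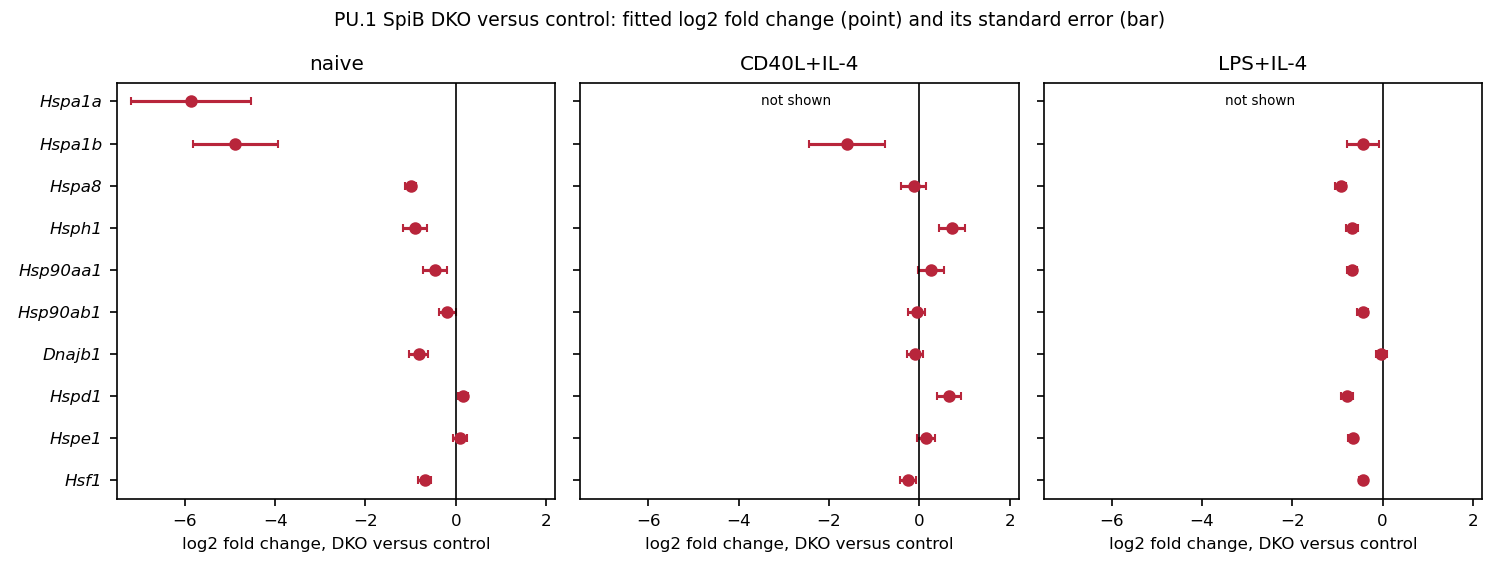
Log2 fold change of DKO against control for the 10 members at each stage. Points are edgeR estimates, bars 1 SE, and the vertical line marks no change. Hspa1a is not shown after CD40L + IL-4, where both DKO libraries had 0 counts, or after LPS + IL-4, where it did not pass the filter. Hspd1 and Hsph1 lie above 0 after CD40L + IL-4 (0.66 and 0.73) and below it after LPS + IL-4 (-0.79 and -0.67).

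Other chaperone genes, a list of 78 that holds none of the 10, followed the stages in the same way. In control cells 41 of the 72 tested rose and 6 fell from naive to LPS + IL-4 (33.2% of all genes rose and 30.7% fell), with a median log2 fold change of 0.77. All 8 subunits of the TRiC/CCT chaperonin, which folds actin and tubulin, rose (median 1.68), as did 10 of 13 HSP90 cochaperones (median 1.36) and 6 of 7 mitochondrial chaperones and proteases (median 1.17). Among the largest called changes were those of Bag2, a cochaperone of HSP70 (4.64 ± 0.41, adjusted p = 6.87e-09), Dnajc2, a ribosome-bound J protein (3.45 ± 0.18, adjusted p = 4.25e-12), and Hspa9, the mitochondrial HSP70 (2.66 ± 0.19, adjusted p = 3.91e-10). From naive to CD40L + IL-4, 25 of the 72 rose and 4 fell (26% and 22.5% of all genes), with a median of 0.36.

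In naive cells DKO differed little from control over this list, with 5 of 68 higher and 2 lower (12.2% of all genes were higher and 9.34% lower) and a median of 0.0039. The largest called change was that of Hspa12a, a distant HSP70 relative (2.68 ± 0.31, adjusted p = 0.000425). It stood at 1.59 and 3.09 CPM in control and 13.9 and 18.9 in DKO. Cryab, Bag2 and Dnaja4 came next, also higher in DKO (2.53, 1.67 and 1.13). Hspa12a was higher than control at all 3 stages in DKO (18.4 and 18.9 CPM against 1.01 and 1.05 after LPS + IL-4) and also in PU.1 cKO, by 3.02 in naive cells, 3.03 after CD40L + IL-4 and 3.20 after LPS + IL-4 on the log2 scale. After CD40L + IL-4, 11 of 70 were higher in DKO and 0 lower (9.40% of all genes were higher), with a median of 0.33 against 0.01 over all genes. Hspa13, a microsomal HSP70 relative, stood at 28.7 and 38.5 CPM in control and 72.7 and 73.2 in DKO (1.15 ± 0.21, adjusted p = 0.00417). After LPS + IL-4, 9 of 67 were higher and 4 lower, close to the shares over all genes (13.1% higher and 7.13% lower), with a median of -0.25, and Fkbp5, an HSP90 cochaperone, was among those higher (0.80 ± 0.08, adjusted p = 7.21e-05).

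Between the cultures, the DKO effect on the other chaperones differed in the same direction as for the members. Of 72 tested, 35 passed as lower after LPS + IL-4 and 2 as higher, with a median of -0.48 against 0.0051 over all genes. Over all genes, 14.7% passed as lower and 14.1% as higher. The 35 included 8 of 8 TRiC/CCT subunits, 9 of 13 HSP90 cochaperones, 5 of 10 HSP70 cochaperones and 4 of 7 mitochondrial chaperones and proteases. Cacybp, which binds HSP90, stood at 105 and 121 CPM in control and 129 and 174 in DKO after CD40L + IL-4, and at 381 and 442 against 235 and 265 after LPS + IL-4 (a difference of -1.25 ± 0.25, adjusted p = 0.00328). Small heat shock proteins contributed 0 of 5 tested genes.

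The 5 genes outside the set with levels most like those of Hspa1b over the 24 libraries, by Pearson r of log2 CPM centred within each stage among 11582 genes, were Heatr5a (0.81), Recql4 (0.80), Zfp36l2 (0.78), Plk4 (0.78) and Tes (0.78). Of the members, Hspa1a came closest (0.88), followed by Hspa8 (0.63), Hsf1 (0.58), Dnajb1 (0.56), Hsph1 (0.51), Hsp90aa1 (0.49), Hsp90ab1 (0.24), Hspd1 (0.11) and Hspe1 (0.08). These correlations are descriptions over libraries that share genotypes. Without the first naive control and second naive DKO libraries, which lay farthest from the median of Hspa1b, the r of Hspa1a was 0.77. Next came Hsp90aa1 (0.64), Hspa8 (0.55), Hsp90ab1 (0.53, up from 0.24), Hsf1 and Hsph1 (0.51 each) and Dnajb1 (0.48). Hspd1 (0.22) and Hspe1 (-0.02) came last. Of the outside genes Heatr5a was then at 0.83, Recql4 at 0.72, Zfp36l2 at 0.71, Plk4 at 0.64 and Tes at 0.61. In every naive library Zfp36l2, an RNA-decay factor, stood between 265 and 402 CPM, far less spread than Hspa1b.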

How the data were processed

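RNA-seq (TruSeq) of sorted lymph node B cells (CD3- B220+ CD138-) gave 24 libraries. Per the labels and the methods of the study, Subread placed reads on GRCm38/mm10, reads with more than 1 placement were dropped, and featureCounts gave the deposited counts per RefSeq gene (versions not given in the sources used here). The deposited log2 RPKM values were quantile normalized by the authors and were used only to compare genes within a stage. Entries without a symbol (517, with 0.162% of counts) stayed in the totals.

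A gene entered a test if 2 or more of its libraries reached 0.5 CPM. The test was that of edgeR 4.0.16 (quasi-likelihood, TMM, R 4.3.3), within each stage or, between stages, in a fit of all 24 libraries, and p-values were adjusted over all genes tested (Benjamini-Hochberg). Effects compared between cultures needed the adjusted p alone. CPM are counts over library totals. DESeq2 1.42.0, limma 3.58.1 (voom), RLE, other filters, a stricter threshold, the replicate block and both Hspa1 genes summed were alternatives. So was leaving out each library of the groups compared, 1 at a time. The fit was tested on simulated data. Named genes outside the set were drawn from the 4 called chaperone or immediate early genes with the largest fold change in a comparison, and the 5 genes most like Hspa1b. The members and lists were chosen with earlier results of these data known. Library totals of 9598674 to 73658850 counts set the precision, and floors of 3 counts cover counting error only. Same-numbered libraries deviated together after LPS + IL-4 (correlations of 0.386 to 0.514 in 6 of 6 pairs) and less so in naive cells (0.0919 to 0.250) and after CD40L + IL-4 (-0.070 to 0.267).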

Additional observations from a re-analysis of the deposited data

Results flagged for a closer look

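For 5 members the effect of DKO against control differed between the cultures by a test of the difference itself, LPS + IL-4 minus CD40L + IL-4, each culture with 2 control and 2 DKO libraries. The log2 difference was -1.49 for Hspd1, -1.44 for Hsph1, -0.97 for Hsp90aa1, -0.85 for Hspe1 and -0.84 for Hspa8. Across all genes 28.7% passed the same test. The cultures were deposited in separate count tables, and plasma cell marker sums were 1231 to 1412 CPM in control and 2202 to 2684 in DKO after CD40L + IL-4, against 672 to 702 and 1640 to 1673 after LPS + IL-4. Most of these sums was Xbp1 and Irf4. The part of the separate tables and of these markers in the differences was not tested.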

How the results depend on the processing

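Of 37 calls of members, 22 were kept under every alternative, and of 273 counts under an alternative 231 were within 1.5 times the reported one. Leaving out 1 library also leaves an arm with a single library, assumed to vary like the others. In naive DKO against SpiB KO the count of 1 became 2 with DESeq2, with no filter, with the replicate block (Dnajb1, -0.68, adjusted p = 0.0852) and with all 24 libraries, 0 at an adjusted p under 0.05, and 0 to 1 on leaving out a library. Leaving out a library gave 0 to 1 in naive PU.1 cKO and in naive SpiB KO against control. After CD40L + IL-4, PU.1 cKO against control went from 1 to 0 with voom, with the Hspa1 pair summed, at an adjusted p under 0.05 and with a mean log2 RPKM above 0, to 2 with no filter, and to 0 to 2 on leaving out a library. SpiB KO against control went from 0 to 1 with no filter. DKO against control went from 3 to 1 at an adjusted p under 0.05 and to 0 to 3 on leaving out a library (0 without the first control). DKO against SpiB KO went from 1 to 3 with DESeq2 and with no filter, to 2 with voom, the replicate block (Hsph1, 0.72, adjusted p = 0.0437) and all 24 libraries, to 0 at an adjusted p under 0.05, and to 0 to 3 on leaving out a library. After LPS + IL-4, SpiB KO against control went from 1 to 0 with all 24 libraries and to 0 to 1 on leaving out a library, DKO against control from 5 to between 1 and 5, and DKO against SpiB KO from 0 to between 0 and 2. The count of members whose DKO effect differed between cultures went from 6 to 3 at an adjusted p under 0.05 and to 2 to 6 on leaving out a library, and with the block Hspa1a lost its call (adjusted p = 0.160). With no filter the same count went from 0 to 3 for PU.1 cKO and to 1 for SpiB KO. Hspa1a in control cells, LPS + IL-4 against CD40L + IL-4, ran from -3.35 to 0.78 on leaving out a library. The cause of these changes was not tested, except that a stricter threshold passes fewer genes. The block changed no other count by over 1.5 times. Low counts of Hspa1a, at most 206 in a library, limit its values.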
